A study of Mus musculus with 37 samples.

Results

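Ribosomal protein pseudogenes are gene rows whose mouse GENCODE symbol starts with Rpl or Rps and contains -ps, such as Rpl10-ps3. Of the 54752 genes in each deposited table, 300 carry such a symbol. The members were chosen by measured values: a row was kept where it held at least 1 count in 3 or more of the 37 oocytes. This kept 176 genes in the RSEM table and 222 in the HTSeq table, of which 165 were in both, 11 in RSEM only and 57 in HTSeq only. The union held 233 genes, and 67 rows with the symbol reached the threshold in neither table. The part of a symbol before -ps names the parent gene, and the 233 members had 57 parents.

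Each ribosomal protein is made from 1 or a few genes with introns, and the mRNAs of these genes are among the most abundant in a growing cell. When such an mRNA is copied back into DNA and inserted elsewhere in the genome, it leaves an intronless copy, a processed pseudogene, that mostly lacks a promoter of its own. Fully grown oocytes make little new RNA, and meiotic maturation runs on stored maternal mRNAs, many of which gain or lose poly(A) tail or are degraded.

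The oocytes came from C57BL/6 mice aged 6 to 8 weeks that had been given 5 IU PMSG, a gonadotropin that makes follicles grow. Germinal vesicle (GV) oocytes, arrested in prophase, were taken 48 h after PMSG, and metaphase I (MI) oocytes had spent 8 h in culture. Metaphase II (MII) oocytes, the ovulated eggs, were taken 15 h after 5 IU hCG, the hormone that triggers ovulation. Batch A held 6 GV and 6 MII oocytes and batch B held 10 GV and 15 MI oocytes, each sequenced alone by Smart-seq2, which primes on poly(A) tails. The samples' labels and the methods do not say which oocytes shared an animal, so every p-value measures the spread between these oocytes.

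Gene counts summed to between 7509875 and 12648629 per GV oocyte of batch A in RSEM, with a median of 10014033, and to between 9930485 and 13988444 per MII oocyte. In batch B the range was 7184205 to 17724506 in GV and 2709280 to 19390128 in MI oocytes. HTSeq totals ran from 2703828 to 24643912 counts over the 37 oocytes. The reads carry no molecular identifiers, so a count is not a molecule. No pair of libraries was identical, and the largest correlation of log2 counts between any pair was 0.967.

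Some libraries stood apart. MII oocyte 1 held counts for 29518 genes in RSEM, against 19270 to 22240 in the other MII oocytes, and its blood and immune markers summed to 15.4 CPM (counts scaled to a common library size), against at most 2.00 in the other 5. MI oocytes 4, 8 and 9 had 1.13, 1.11 and 1.07 HTSeq counts per RSEM count in the median gene, against 1.98 to 2.20 in the other oocytes, and HTSeq detected 41, 48 and 42 members in them. MI oocyte 15 had the lowest depth, and its members summed to 214 CPM in HTSeq. GV oocyte 4 of batch B had 208 CPM there, against 64.9 to 138 in the other 9 GV oocytes of its batch. The calls without these oocytes are given with the calls.

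The oocyte markers checked on the labels were all present. Counts for 13 of 13 oocyte marker genes, among them Gdf9, Zp3 and H1foo, were found in all 37 oocytes. In RSEM the summed cumulus and granulosa markers were 30.6, 22.9, 23.7 and 20.4 CPM in the GV and MII oocytes of batch A and the GV and MI oocytes of batch B. Cyp19a1 made up most of this, at 17.6, 16.1, 16.2 and 13.6 CPM, while Amh and Foxl2 were at 0 in batch B. Other markers of this list differed between stages in either direction, Fshr at 1.26 and 0.0152 CPM and Inha at 0.981 and 0.0600 CPM at GV and MII, and Inhba at 1.60 and 0.250 CPM and Has2 at 0.904 and 2.12 CPM at GV and MI. In HTSeq Foxl2 was not at 0 in batch B (0.0228 and 0.00545 CPM). Of 8 blood and immune markers, summing to a mean of 1.04, 3.66, 5.18 and 3.46 CPM in RSEM, Hbb-bs and Hbb-bt were the most abundant in batch B in RSEM and Cd68 in HTSeq. Their part in the pseudogene counts was not tested.

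Most members held few counts. The median member had a mean of 0.818 counts per oocyte in RSEM and 1.43 in HTSeq, and 17 and 40 members had a mean of at least 10. In RSEM the top member held 18.5% and the top 5 held 48.5% of the members' counts, and in HTSeq these shares were 9.47% and 28.2%. Rps16-ps2 and Rpl28-ps1 were the 2 members with a count in all 37 oocytes in RSEM, where HTSeq had 19 such members. Among the 57 parents, 43 had more than 1 member, led by Rpl31 with 15, Rpl21 and Rps12 with 13 each and Rpl7a with 12. The annotation calls 220 members processed pseudogenes, 7 transcribed processed pseudogenes and 6 protein-coding genes.

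At the detection threshold, 12 RSEM and 17 HTSeq members had a count in exactly 3 oocytes. Rpl21-ps15 and Rpl17-ps10 were those of highest total in RSEM, with at most 4.97 and 3.30 counts in an oocyte. In HTSeq they were Rpl7a-ps13 and Rpl7l1-ps1, with at most 11 and 6 counts. Just outside it, 24 RSEM and 16 HTSeq rows had a count in exactly 2 oocytes. Rps19-ps1 and Rps19-ps2 were the RSEM rows of highest total there, with at most 6.04 counts each, and RSEM gave both the same count in every group's lowest, median and highest oocyte. Rpl9-ps9 and Rpl21-ps9 were those in HTSeq, with at most 8 and 5 counts.

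The members lay on every autosome and on X, with 22 on chromosome X and 17 each on chromosomes 1 and 11. No other annotated gene overlapped 154 of them, 47 lay in an intron of a gene on the opposite strand and 21 in an intron of a gene on the same strand. An exon of another gene overlapped 7 members on the same strand and 4 on the opposite strand. Rps16-ps2 (chromosome 5, 129128077 to 129128517, minus strand, GRCm38) lies in an intron of Adgrd1 and Rpl28-ps1 (chromosome 1, 128038569 to 128038982, plus strand) in an intron of Zranb3, each on the strand opposite its host. Rpl19-ps11 (chromosome 8, 19492936 to 19493526, plus strand) lies in an exon of Gm27288 on the same strand.

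The members' transcripts were 151 to 1758 bases long (median 474), and 230 of 233 aligned to a transcript of their parent. Identity to the parent had a median of 97.2% and ran from 76.2% to 100%, with 156 members at 95% or more and 29 under 90%. A read that lies in a stretch found in both a member and another transcript cannot be given to either by its sequence. Of each member's windows of 100 bases, the share found unchanged in another annotated transcript was therefore counted. It was 0 in 72 members and at least 50% in 66 members, and 141 shared a window with their own parent. The 66 members of high sharing held 76.7% of the members' RSEM counts and 55.8% of their HTSeq counts, so their counts are uncertain.

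The 4 members of highest mean level in RSEM are shown, chosen by that level alone. For each, the 30 bases are those with the most substitutions in the stretch that aligns without a gap to the parent's coding sequence. Capitals mark bases that differ between a member and its parent. Rps16-ps2 (5:129128488-129128517, minus strand, GRCm38), Rpl28-ps1 (1:128038569-128038598, plus strand) and Rpl10-ps3 (9:50344912-50344941, minus strand) have 0 substitutions, so a read from the stretch fits member and parent equally. Rpl19-ps3 (14:49112526-49112555, minus strand) differs from Rpl19 (11:98029402-98029431) by 5 substitutions, G4C, C20A, T28C, G29A and A30G, counted from 1 at the 5′ end with the parent's base given before the position.
Rps16-ps2 and Rps16: atgccgtccaagggtccgctgcagtccgtg
Rpl28-ps1 and Rpl28: atgtccgcgcatctgcagtggatggtcgtc
Rpl10-ps3 and Rpl10: atgggccgccgccccgcccggtgttaccgg
Rpl19-ps3: gaaCggtactgccaatgctAggatgccCAG
Rpl19: gaaGggtactgccaatgctCggatgccTGA

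RSEM and HTSeq gave many members very different counts. Among genes with a mean of at least 10 RSEM counts, the median of HTSeq counts per RSEM count was 0.425 over 17 members, 1.96 over 57 parents and 1.93 over 13064 genes. It was below 1 for 14 of the 17 members. The choice by RSEM counts favors low ratios, and at a mean of at least 1 RSEM count the median was 1.06 over 74 members, with 35 below 1 and 12 above 4, and 1.91 over 20529 genes. Among the 17 members, Rps23-ps1, identical to its parent over 425 bases, had the fewest HTSeq counts per RSEM count, 0.00432, followed by Rpl15-ps3 with 0.0255 and Rpl29-ps2 with 0.0498. Of the same 17, Rpl17-ps3 had the most with 2.44, before Rpl19-ps3 with 1.82 and Rps13-ps2 with 1.80, although Rps13-ps2 is identical to its parent. Over members with a mean of at least 1 RSEM count, this ratio had a Spearman correlation of -0.188 with the share of windows shared (74 members) and of -0.198 with identity (73 members). These members share libraries, and some share a parent, so both values are descriptions.

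**Figure D1:**
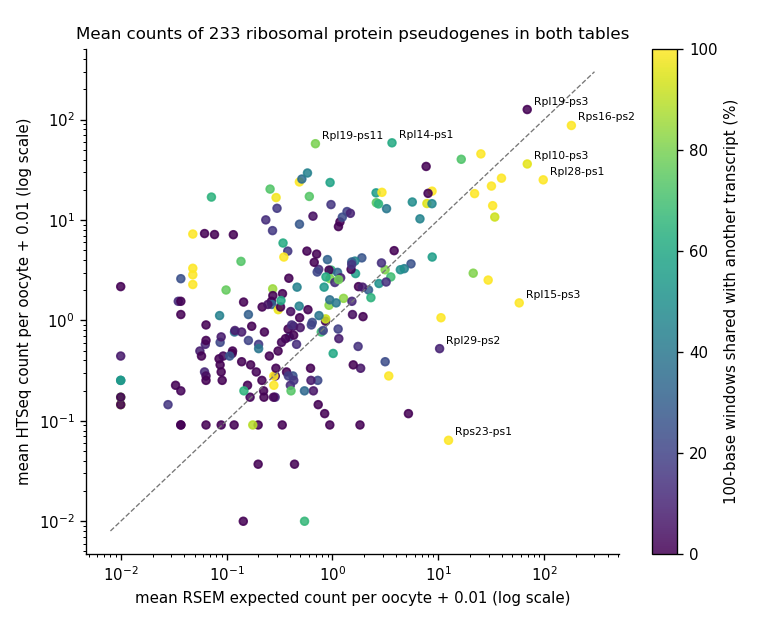
Mean count per oocyte of the 233 pseudogenes in RSEM (horizontal) and HTSeq (vertical), both on log scales with 0.01 added, where each point is a gene, its colour the percent of its 100-base windows found in another transcript, and the dashed line equal counts. Rps23-ps1 and Rpl15-ps3 lie far below the line and Rpl19-ps11 and Rpl14-ps1 far above it.

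From GV to MII in batch A, the question was whether the pseudogenes move with the genes they were copied from. Most of the parents tested were called lower, and the summed pseudogenes were lower too. In HTSeq most pseudogenes called lower had a parent that was called lower. In RSEM several of the most abundant pseudogenes changed far more than the parent, or the opposite way, and most of these changes were not seen in HTSeq.

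The summed level of all members in RSEM had a mean of 133 CPM over the 6 GV oocytes, with an SD of 30.9, and of 70.3 CPM over the 6 MII oocytes, with an SD of 14.3. In HTSeq it was 139 ± 35.7 at GV and 66.3 ± 17.5 at MII. The parents summed to 3251 and 1331 CPM in RSEM and to 5161 and 2305 CPM in HTSeq. Per 100 parent counts, the members held a median of 4.16 counts at GV (2.83 to 5.99) and 4.90 at MII (4.67 to 7.04) in RSEM, and of 2.53 (2.39 to 3.46) and 2.86 (2.39 to 3.40) in HTSeq, so the stages overlapped in both. These sums are counts, not corrected for length, and were not tested.

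**Figure D2:**
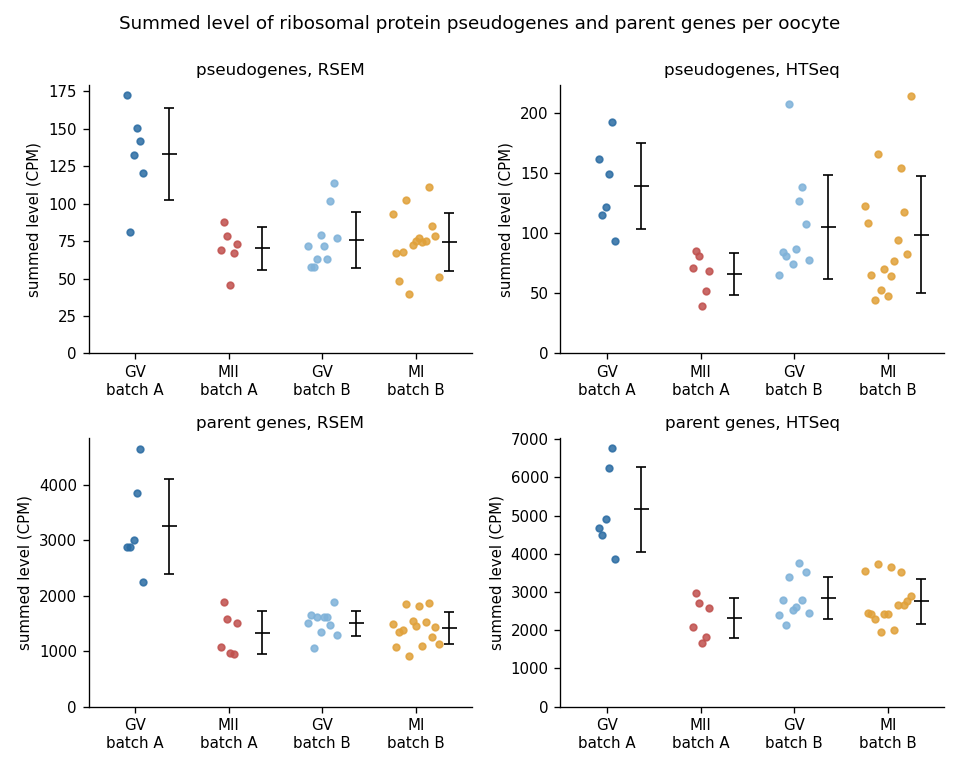
Summed level in CPM (vertical) of the members and of their parent genes in each oocyte, by stage and batch (horizontal), in RSEM and HTSeq, with bars at the mean and 1 SD. In batch A the members' mean was 133 CPM at GV and 70.3 at MII in RSEM, and in batch B it was 75.6 at GV and 74.5 at MI.

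A gene was called where edgeR gave an adjusted p under 0.05, adjusted over all genes tested, and a fold change over 2. Of 176 RSEM members, 13 passed the filter on low counts. Of these, edgeR called 5 lower at MII, where 6.32% of the 12929 genes tested were lower, and 3 higher, where 2.15% were. Of 222 HTSeq members, 26 passed, with 10 called lower, beside 5.04% of 13409 genes, and 1 higher, beside 0.753%. The other 163 RSEM and 196 HTSeq members were too low to test, with median mean counts of 0.709 and 1.09. A member could pass the filter through 1 stage alone. Rpl29-ps2 in RSEM and Rpl18-ps1 and Rps18-ps3 in HTSeq did so, through the stage where they were high. Rpl27-ps3, Rps13-ps1 and Rpl31-ps8 in RSEM and Rpl38-ps2 in HTSeq, among others, passed mainly through GV. Most of their MII oocytes were low. The counts of calls include these members. The members that passed were also more alike to their parents, with 7 of 13 in RSEM and 8 of 26 in HTSeq identical to them, against 7 of 163 and 5 of 196 of those not tested. Without MII oocyte 1, edgeR called 6 of 17 members tested lower and 3 higher in RSEM, beside 753 and 163 of 13113 genes. In HTSeq it then called 12 of 35 lower and 1 higher, beside 597 and 91 of 13655 genes. Without GV oocyte 6, 17 of 34 members tested were lower in HTSeq, beside 831 of 13651 genes. Without MII oocyte 2, 17 of 36 were lower there, beside 765 of 13654 genes. In HTSeq 0 members were higher without GV oocyte 2, 3 or 6 or MII oocyte 3.

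In RSEM edgeR called 31 of 50 parents tested lower and 0 higher, with 1 higher at an unadjusted p under 0.05 (Rpl5, at 0.73, chosen after its values were seen) and 0 called higher by DESeq2. Rpl5 went the other way in HTSeq, at -1.04 (SE 0.17). In HTSeq edgeR called 31 of 56 lower and 0 higher, with 0 higher at an unadjusted p under 0.05 and 0 called higher by DESeq2. Of the 82 cytoplasmic ribosomal protein genes, 45 of 82 tested were lower in RSEM and 42 of 81 in HTSeq. The median log2 fold change was -1.26 and -1.14 for the parents, -1.08 and -1.07 for the cytoplasmic list, -1.13 and -1.24 for the members tested, and 0.01 and 0.03 for all genes tested, in RSEM and HTSeq. Scaling by the ERCC spike-ins, which only batch A holds in number, moved the median of all genes to -0.72 and -0.73, and with it 44 and 49 parents were lower, the higher calls of Rpl10-ps3 in RSEM and Rpl19-ps11 in HTSeq were lost, and Rps16-ps2 and Rpl31-ps8 turned from above to below 0 in HTSeq.

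Among the large subunit members, 8 were tested in RSEM, with 3 lower and 2 higher, and 16 in HTSeq, with 6 lower and 1 higher. Rpl10-ps3 (chromosome 9, 50344201 to 50344968, minus strand) is identical to Rpl10, whose protein joins the large subunit late in its assembly, over 740 bases. Its RSEM level ran from 2.83 to 8.81 CPM at GV, with a median of 4.16, and from 10.3 to 19.0 at MII, with a median of 15.8. All 6 MII oocytes lay above all 6 GV oocytes. Its log2 fold change was 1.65 (SE 0.279, adjusted p = 0.000846 in edgeR), and it was 0.79 and not called with spike-in scaling. In the fit of all 37 oocytes it was 1.70 and not called either.

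In HTSeq, Rpl10-ps3 ran from 2.58 to 16.6 CPM at GV, with a median of 9.13, and from 1.87 to 3.98 at MII, with a median of 2.73. Every MII oocyte was below the GV median, and the groups overlapped. Its log2 fold change was -1.65 (SE 0.385, adjusted p = 0.00784 in edgeR), and the call was lost in the fit of all 37 oocytes. Rpl10 itself went from a median of 91.0 to 19.6 CPM in RSEM and from 114 to 40.5 in HTSeq. Its log2 fold changes were -2.15 and -1.41, both called. The same member was thus called higher in one table and lower in the other, while its parent was lower in both.

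Rpl29-ps2 (chromosome 13, 4609334 to 4615025, plus strand) carries a copy of Rpl29, a large subunit protein that mice can live without, in 54.5% of its transcript, at 97.0% identity. It had 0.169 to 0.836 CPM at GV in RSEM, with a median of 0.433, and 2.06 to 4.16 at MII, with a median of 2.77. The groups did not overlap. The log2 fold change was 2.58 (SE 0.435), against -1.95 for Rpl29. In counts Rpl29-ps2 had 2.05 to 9.25 at GV and 19.3 to 40.2 at MII. It passed the filter on low counts through MII alone, so its call is given without p, as a description. HTSeq gave it 0 counts in the 6 GV oocytes and a count in 2 of the 6 MII oocytes, at most 13, so it could not be tested there.

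Rpl31-ps8 (chromosome 15, 90764279 to 90764656, minus strand) is identical to Rpl31, a protein at the exit of the tunnel for the growing peptide, over its 378 bases. In RSEM it ran from 7.36 to 16.0 CPM at GV, with a median of 11.2, and from 0 to 4.66 at MII, with a median of 0.925. All MII oocytes were below all GV oocytes, and MII oocyte 2 held the 4.66. Its log2 fold change of -2.94 (SE 0.570) stood beside -0.17 for Rpl31. In RSEM Rpl31-ps8 passed the filter on low counts mainly through GV, so its call is given without p, as a description. In HTSeq Rpl31-ps8 ran from 1.62 to 4.59 CPM at GV and from 3.01 to 7.66 at MII, with overlap. The log2 fold change there was 0.76, not called, with -0.75 for Rpl31, and with spike-in scaling it was -0.04.

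Rpl28-ps1 had 8.83 to 26.5 CPM at GV in RSEM, with a median of 18.5, and 4.74 to 8.29 at MII, with a median of 5.86. The groups did not overlap, and the log2 fold change was -1.64 (SE 0.255, adjusted p = 0.000427 in edgeR), while Rpl28 had -0.61 and was not called. In HTSeq the order was the other way, with -0.39 and no call for Rpl28-ps1 and -1.13 and a call for Rpl28. Rpl27-ps3, identical to Rpl27, had a median of 2.01 CPM at GV and 0.296 at MII in RSEM, and 1 MII oocyte lay within the GV range. It was called lower at -2.47 (SE 0.681), with -1.12 and a call for Rpl27. Rpl27-ps3 passed the filter on low counts mainly through GV, so its call is given without p, as a description.

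HTSeq called other large subunit members. Rpl14-ps1 (chromosome 7, 45324965 to 45325617, plus strand), in an intron of Trpm4 on the opposite strand, had 4.14 to 9.23 CPM at GV, with a median of 6.41, and 0.401 to 1.61 at MII, with a median of 1.08. The groups did not overlap, and the log2 fold changes were -2.60 (adjusted p = 0.000327 in edgeR) for Rpl14-ps1 and -1.77 for Rpl14. Rpl38-ps2 ran from 1.38 to 2.60 CPM at GV and from 0.0669 to 0.795 at MII. Rpl18-ps1 ran from 0.780 to 1.62 CPM at GV, and 2 of 6 MII oocytes held a count. Neither overlapped. The log2 fold changes were -2.76 for Rpl38-ps2, with -1.90 for Rpl38, and -3.77 for Rpl18-ps1, with -1.43 for Rpl18, all called. Rpl18-ps1 passed the filter on low counts through GV alone and Rpl38-ps2 mainly through GV, so their calls are descriptions.

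Rpl17-ps3, a copy of a gene whose protein lines the exit tunnel, ran from 2.03 to 4.68 CPM at GV and from 0.892 to 1.66 at MII in HTSeq. The groups did not overlap, with a log2 fold change of -1.19 (SE 0.397, adjusted p = 0.0497 in edgeR) beside -0.19 for Rpl17. Leaving out 1 oocyte at a time, the call of Rpl17-ps3 held only without GV oocyte 2 (-1.28) or MII oocyte 2 (-1.30) and was lost without any other, at log2 fold changes of -0.97 to -1.25. It was also lost with no filter (-1.24) and in the fit of all 37 oocytes (-1.14). Rpl36-ps2, chosen after its values were seen, was the remaining lower call of the large subunit, with -2.79 beside -1.96 for Rpl36.

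Rpl19-ps11 was the 1 member called higher in HTSeq, a copy at 99.8% identity of Rpl19, which bridges the subunits. It ran from 2.34 to 5.89 CPM at GV, with a median of 3.22, and from 4.54 to 12.5 at MII, with a median of 7.68. In 5 of 6 MII oocytes it was above every GV oocyte. The log2 fold change was 1.09 (SE 0.315, adjusted p = 0.0255 in edgeR), against -0.51 for Rpl19. The call was lost without GV oocyte 2 (1.00), 3 (1.04) or 6 (0.94) or MII oocyte 3 (0.93). It was also lost with no filter (1.03), with the replicate block, in the fit of all 37 oocytes (1.14) and with spike-in scaling (0.30). RSEM gave Rpl19-ps11 at most 1.73 counts in a batch A oocyte. Rpl19-ps3, the copy with 60 mismatches over 701 aligned bases, had a median of 10.5 CPM at GV and 11.2 at MII in HTSeq and log2 fold changes of -0.36 in RSEM and -0.11 in HTSeq, called in neither.

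Among the small subunit members, 5 were tested in RSEM, with 2 lower and 1 higher, and 10 in HTSeq, with 4 lower and 0 higher. In HTSeq the 1 member of either subunit above 0 at an unadjusted p under 0.05 in edgeR, and the 1 called higher by DESeq2, was Rpl19-ps11 of the large subunit. Rps2-ps10 (chromosome 18, 61259008 to 61259972, minus strand), in an intron of Pde6a on the opposite strand, is a copy at 99.4% identity of Rps2, whose protein lies near the mRNA entry. In RSEM it ran from 0.622 to 2.61 CPM at GV, with a median of 1.77, and from 9.06 to 16.0 at MII, with a median of 11.4. All MII oocytes were above all GV oocytes. The log2 fold change was 2.80 (SE 0.314, adjusted p = 2.17e-05 in edgeR), and 2.01 with a call under spike-in scaling, while Rps2 had -0.42 and no call. In HTSeq Rps2-ps10 ran from 0.492 to 2.10 CPM at GV and from 0.334 to 1.94 at MII, with a log2 fold change of -0.25 beside -0.29 for Rps2, neither called.

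Rps16-ps2 is identical to Rps16, whose protein touches the tRNA in the peptidyl site. It ran from 10.7 to 32.0 CPM at GV in RSEM, with a median of 22.6, and from 8.81 to 13.4 at MII, with a median of 9.91. In 4 of 6 MII oocytes it was below every GV oocyte. For Rps16-ps2 the log2 fold change was -1.13 (SE 0.242, adjusted p = 0.00409 in edgeR), with -0.27 and no call for Rps16. In HTSeq it was 0.18 for Rps16-ps2 and -0.68 for Rps16, neither called, and with spike-in scaling Rps16-ps2 had -0.65.

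A single copy of Rps13 passed the filter in RSEM and another in HTSeq, and each moved with the parent. Rps13-ps1 (chromosome 8, 87047689 to 87048226, plus strand) ran from 2.39 to 9.14 CPM at GV in RSEM and from 0 to 1.43 at MII, without overlap. Its log2 fold change was -3.25 (SE 0.620), with -3.44 for Rps13. Rps13-ps1 passed the filter on low counts mainly through GV, so its call is given without p, as a description. Rps13-ps2 ran from 5.28 to 11.2 CPM at GV in HTSeq and from 0.469 to 2.67 at MII, without overlap, at a log2 fold change of -2.76 (SE 0.440, adjusted p = 0.000451 in edgeR) beside -3.33 for Rps13. RSEM gave Rps13-ps2 a count in 1 of 6 GV and 0 of 6 MII oocytes, too few to test.

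Rps18-ps3, a copy at 99.3% identity, had 1.13 to 2.58 CPM at GV in HTSeq and 0 to 0.334 at MII, without overlap. Its log2 fold change was -3.96 (SE 0.733), with -1.81 for Rps18. Rps18-ps3 passed the filter on low counts through GV alone, so its call is given without p, as a description. Rps26-ps1 and Rps6-ps4, both chosen after their values were seen, were the remaining lower calls in HTSeq, with -2.68 and -1.40. Rps26-ps1 had 0.63 and no call in RSEM, where Rps26 had -2.84. Rps23-ps1 had a median of 3.35 CPM at GV and 0.0684 at MII in RSEM, while HTSeq gave it 0 counts in the 12 oocytes of batch A. It did not pass the filter in RSEM in batch A, and the stages overlapped there, with GV oocyte 6 at 0 CPM.

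**Figure D3:**
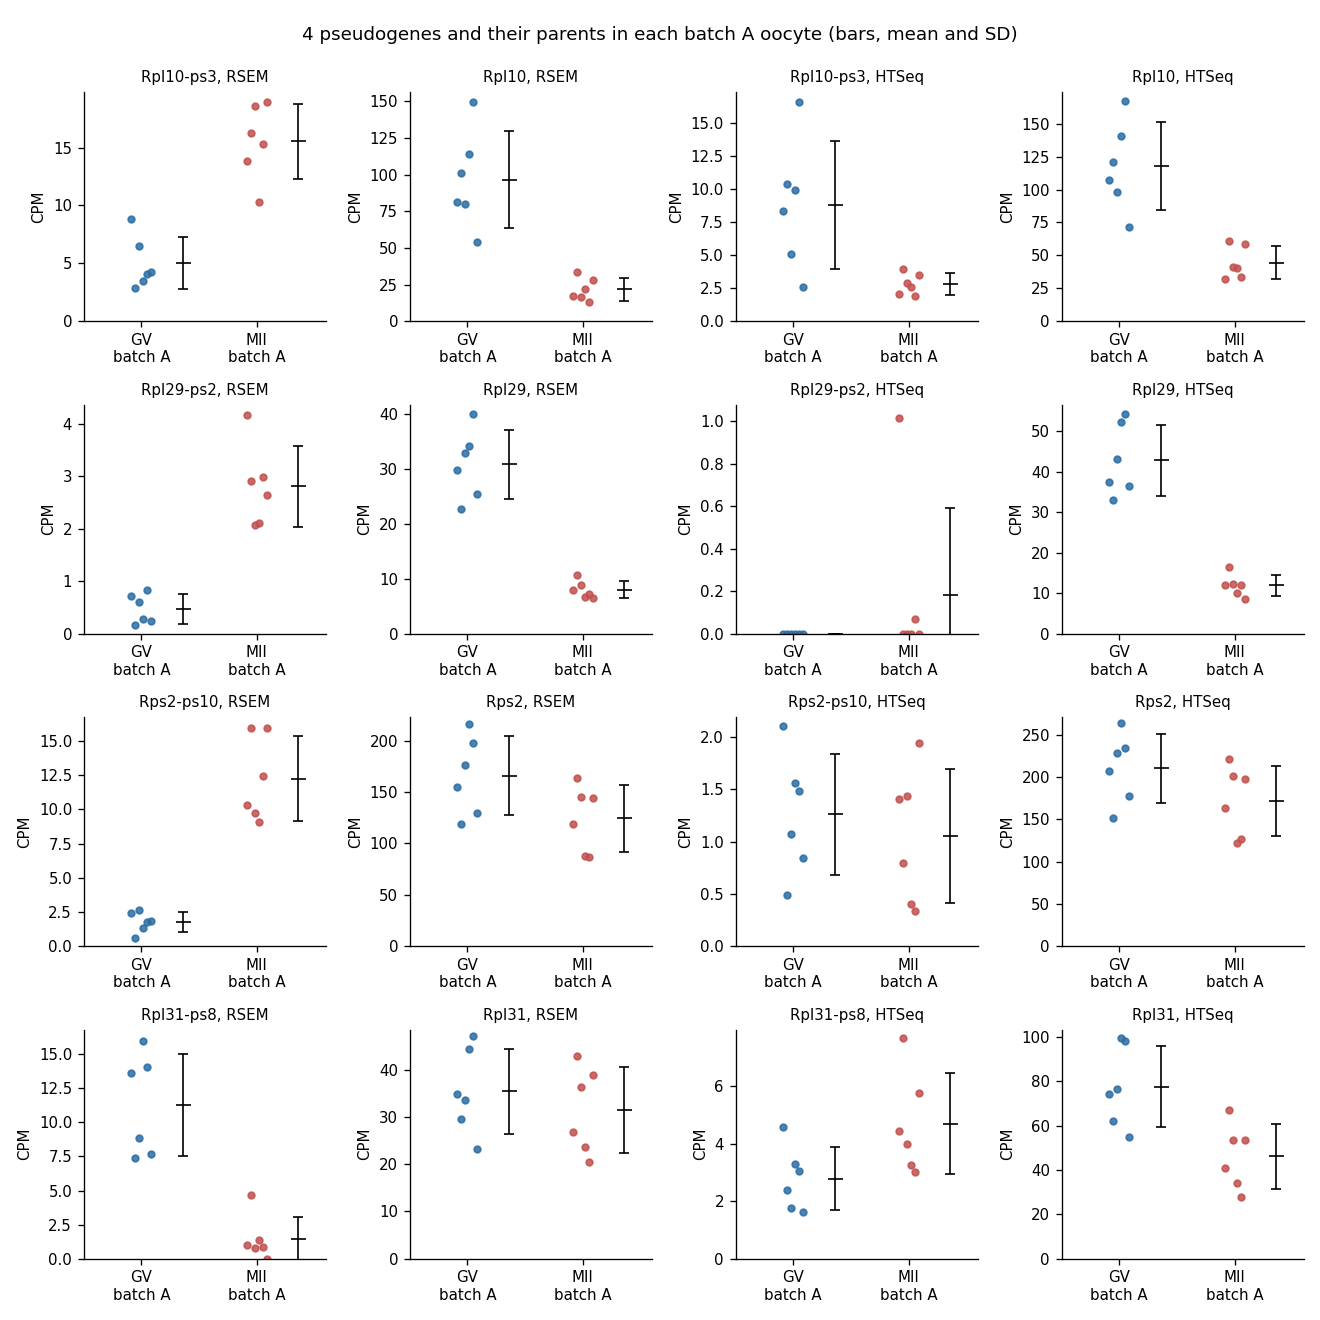
Level in CPM (vertical) of Rpl10-ps3, Rpl29-ps2, Rps2-ps10 and Rpl31-ps8 and of their parents in each GV and MII oocyte of batch A (horizontal), in RSEM and HTSeq, with bars at the mean and 1 SD. In RSEM all MII oocytes lie above all GV oocytes for Rpl10-ps3, Rpl29-ps2 and Rps2-ps10 and below them for Rpl31-ps8, and in HTSeq the stages overlap for these 4 members.

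Over the pairs in which member and parent were both tested, every parent had a log2 fold change below 0, and so had the member in 9 of 13 pairs in RSEM and 23 of 26 in HTSeq. A shared sign therefore does not tell a member's own parent from any other. Both were called lower in 2 of the 13 and 9 of the 26 pairs. The median difference of the log2 fold changes, member minus parent, was -0.04 in RSEM and -0.34 in HTSeq, and it exceeded 1 in size for 8 of the 13 and 7 of the 26 pairs. The Pearson correlation across pairs was -0.0999 in RSEM and 0.630 in HTSeq, with Spearman values of -0.0714 and 0.645. Pairs share libraries and reads, the 26 pairs have 21 parents, and members that are low in both stages were not tested, so these values describe the tested pairs only. The median SE was 0.499 and 0.468 for members and 0.220 and 0.233 for parents.

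**Figure D4:**
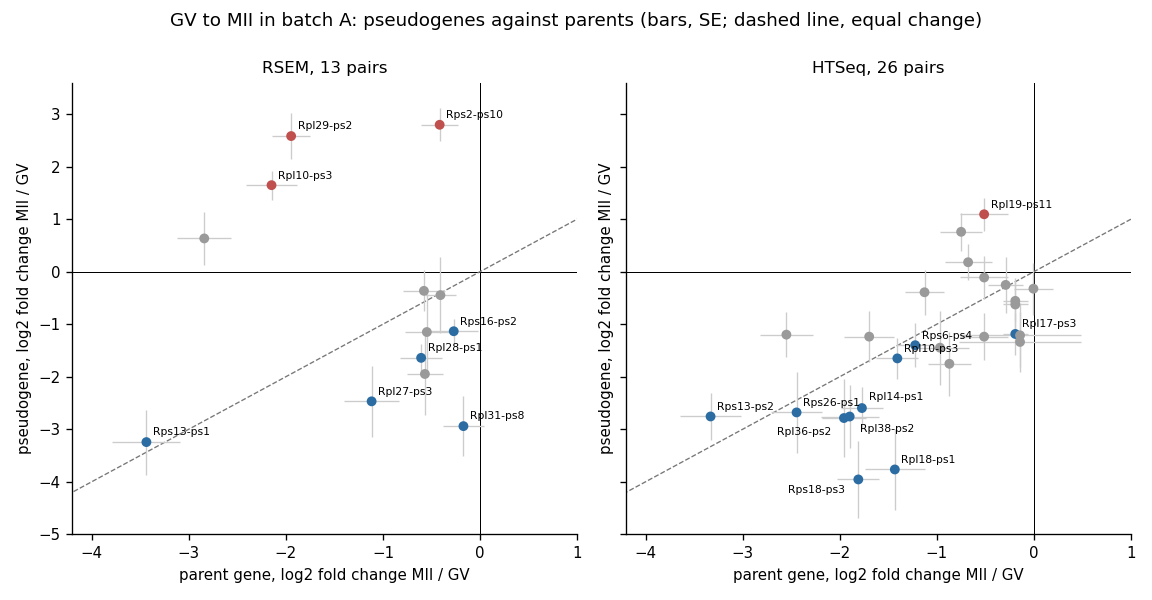
Log2 fold change from GV to MII of each tested pseudogene (vertical) and its parent (horizontal) in batch A, with SE bars, the dashed line at equal change, and members called lower in blue, higher in red and not called in grey. All parents lie below 0, and the member does in 9 of 13 pairs in RSEM and 23 of 26 in HTSeq.

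How a pair's counts divided between member and parent was compared directly. The log2 ratio of member to parent CPM, each with 0.5 added, was compared between stages for 17 pairs, 46 tests over both tables and batches, by two-sided permutation tests that are exact in batch A. The pairs are those of the members named for their level or because edgeR called them between the same GV and MII oocytes. For a member called in a table, the ratio in that table is therefore given without p, as a description. The other p-values are unadjusted, and come from the same libraries as the calls in the other table.

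In RSEM the ratio of Rpl10-ps3 to Rpl10 was higher at MII by 3.74 on the log2 scale, that of Rpl29-ps2 to Rpl29 by 3.67 and that of Rps2-ps10 to Rps2 by 2.96. The ratio of Rpl31-ps8 to Rpl31 changed by -2.70. The stages did not overlap in these 4 ratios. Rpl28-ps1 changed by -0.92 and Rps16-ps2 by -0.73 against their parents, with overlap. Rpl15-ps3 changed by -1.48 (exact p = 0.0476), and p exceeded 0.05 without MII oocyte 1 (-1.57).

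The shares behind these ratios show the size of the shift. Rpl10-ps3 held a median of 5.12% (2.66% to 9.78%) of the RSEM counts of its pair at GV and 42.7% (31.6% to 54.4%) at MII. Rpl29-ps2 went from 1.35% (0.738% to 2.38%) to 26.3% (18.9% to 34.2%), and Rps2-ps10 from 1.12% (0.521% to 1.54%) to 9.15% (6.28% to 12.6%). Rpl31-ps8 went the other way, from 23.9% (20.0% to 28.1%) to 3.79% (0% to 9.79%). None of these 4 ranges overlapped between the stages.

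In HTSeq the same ratios moved differently. The ratio of Rpl10-ps3 to Rpl10 changed by 0.05 and that of Rps2-ps10 to Rps2 by 0.08 (exact p = 0.714). That of Rpl31-ps8 to Rpl31 was higher by 1.44 (exact p = 0.00216) and that of Rpl19-ps11 to Rpl19 by 1.54, both without overlap. Rps16-ps2 was higher by 0.86 (exact p = 0.00649), Rps13-ps2 by 0.96 and Rpl28-ps1 by 0.70 (exact p = 0.0216). Rpl17-ps3 changed by -0.70 and Rpl14-ps1 by -0.39, the latter being 0.28 with 2 CPM added in place of 0.5. With nothing added, Rpl14-ps1 held a median of 5.13% (4.26% to 6.52%) of the HTSeq counts of its pair at GV and 3.10% (1.57% to 3.99%) at MII, without overlap. Rps13-ps2 held 3.96% (3.22% to 4.32%) at GV and 6.09% (2.20% to 7.43%) at MII, with overlap. Its edgeR log2 fold change minus that of Rps13 was 0.57, smaller than the 0.96 with 0.5 CPM added.

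Adding a parent and its members together removes the choice between them. In RSEM the sum for Rpl10 had a log2 fold change of -1.44 against -2.15 for the parent alone, that for Rpl29 -1.53 against -1.95 and that for Rpl31 -0.52 against -0.17. In HTSeq the sum for Rpl10 had -1.42 against -1.41 and that for Rpl31 -0.67 against -0.75, but that for Rps10, chosen after its values were seen, differed from its parent's -0.14 by -0.86. HTSeq gave Rps10 itself a mean of only 11.2 counts at GV and 8.83 at MII. In RSEM its mean was 571 and 215 counts, with -1.31 for both the sum and the parent alone. Summed over its family, Rpl28 had -0.87 in RSEM and -1.11 in HTSeq, against -0.61 and -1.13 alone.

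From GV to MI in batch B, the same question was asked of oocytes that had been 8 h in culture. Few genes of any kind were called there. No pseudogene and no parent was called in either table with the filter on low counts. The members' summed levels differed between the stages by less than their SD. The ratio of member to parent had p under 0.05 for 1 pair in RSEM and 1 in HTSeq.

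In RSEM 18 of 176 members were tested, 11 of the large and 7 of the small subunit. By edgeR 0 were lower, where 0.0322% of 12419 genes were, and 0 were higher, where 0.0886% were, with 1 member at an unadjusted p under 0.05 and 0 called by DESeq2. In HTSeq 38 of 222 were tested, 23 and 15, with 0 called lower (0% of 12441 genes) and 0 higher (0%) by edgeR, 1 at an unadjusted p under 0.05 and 0 called by DESeq2. Of the parents, edgeR called 0 of 50 in RSEM and 0 of 55 in HTSeq, with 6 and 9 at an unadjusted p under 0.05 and 0 called by DESeq2. Neither tool called any of the 82 and 79 cytoplasmic ribosomal protein genes tested. Without MI oocytes 4, 8 and 9, without MI oocyte 15 or without GV oocyte 4, the last chosen after seeing the data, edgeR called 0 members in either table. With no filter on low counts HTSeq gave 7 lower and 6 higher members, beside 2060 and 930 of 35354 genes.

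The members with an unadjusted p under 0.05 were Rps16-ps2 in RSEM and Rpl28-ps1 in HTSeq. Rps16-ps2 ran from 5.45 to 17.0 CPM at GV, with a median of 12.0, and from 5.82 to 31.1 at MI, with a median of 13.9. The groups overlapped, with a log2 fold change of 0.51 (SE 0.244, adjusted p = 0.436 in edgeR). Rpl28-ps1 ran from 0.395 to 2.68 CPM at GV in HTSeq, with a median of 1.14, and from 0.387 to 14.9 at MI, with a median of 1.86, a log2 fold change of 1.26 (SE 0.616, adjusted p = 0.663 in edgeR). The 14.9 was in MI oocyte 15, the shallowest library, and without it Rpl28-ps1 had 0.74.

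From GV to MI, Rpl10-ps3 had log2 fold changes of -0.38 in RSEM and -0.15 in HTSeq, the latter turning to 0.18 without GV oocyte 4 and 0.16 without MI oocytes 4, 8 and 9. Its RSEM level ran from 0 to 10.9 CPM at GV and from 0 to 7.22 at MI. Rps2-ps10 had -0.38 in RSEM, with 0.550 to 3.32 CPM at GV and 0 to 2.92 at MI. Rpl31-ps8 had -0.30 in RSEM and -0.14 in HTSeq, the latter turning to 0.35 without GV oocyte 4 and 0.02 without MI oocytes 4, 8 and 9. Rpl29-ps2 was too low to test, and in RSEM it had a median of 0.217 CPM at GV and 0.744 at MI, with 7 of 15 MI oocytes above every GV oocyte. Whether the change from GV differed between MI and MII was not tested.

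Over the tested pairs of batch B, 13 of 18 in RSEM and 26 of 36 in HTSeq had the same sign as their parent. The median difference, member minus parent, was 0.03 in RSEM and -0.04 in HTSeq. The Pearson correlation across pairs was 0.139 and 0.371, with the same limits as in batch A. Medians of the log2 fold change were -0.04 and -0.15 for the members tested, -0.12 and -0.15 for the parents and 0.02 and 0.01 for all genes. The HTSeq median of the members turned to 0.15 without GV oocyte 4 and to 0.02 without MI oocytes 4, 8 and 9.

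Of the ratios to the parent in batch B, 1 of 11 in RSEM and 1 of 12 in HTSeq had p under 0.05. Rps13-ps2 was higher at MI by 1.20 against Rps13 in RSEM (permutation p = 0.0468), where p exceeded 0.05 without GV oocyte 4 (0.93), MI oocyte 15 (1.12) or MI oocytes 4, 8 and 9 (1.20). Rpl28-ps1 was higher by 0.70 against Rpl28 in HTSeq (permutation p = 0.0066). In RSEM this pair went the other way, with edgeR log2 fold changes of -0.218 for Rpl28-ps1 and 0.225 for Rpl28, neither called. For Rpl10-ps3 the RSEM ratio differed by 1.01 (permutation p = 0.199), with GV oocytes from -5.15 to 0.23 and MI oocytes from -3.93 to 2.75 on the log2 scale.

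In RSEM the members summed to a mean of 75.6 CPM over the 10 GV oocytes, with an SD of 18.7, and of 74.5 CPM over the 15 MI oocytes, with an SD of 19.2, and in HTSeq to 105 ± 43.1 and 98.9 ± 48.9 CPM. The parents summed to 1502 and 1412 CPM in RSEM and 2836 and 2759 in HTSeq. Per 100 parent counts the members held a median of 5.10 and 5.16 counts in RSEM and of 3.27 and 3.46 in HTSeq. All of these differences were smaller than 1 SD between oocytes.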

How the data were processed

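RSEM expected counts per gene and HTSeq counts per gene, both as deposited by the authors and not normalized, were used for 37 single oocytes. The authors trimmed reads with Trim Galore 0.6.4, estimated the deposited expected counts with RSEM 1.3.1, and aligned with STAR 2.7.6a to mm10 and counted with HTSeq 0.12.4 for the deposited counts. How HTSeq treated strand and reads with several alignments is not stated. The transcript table was not used. The members, gene lists and tests were chosen with earlier results of these data known.

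Expected counts were rounded, spike-ins were left out, and genes passing filterByExpr were tested within each batch with edgeR 4.0.16 (quasi-likelihood, TMM) in R 4.3.3, with DESeq2 1.42.0 as an alternative. A call required p under 0.05 after Benjamini-Hochberg adjustment over all genes tested, with a fold change over 2. The fits were tested on simulated data. CPM of single genes used the TMM-scaled library size, and summed CPM all gene counts. Ratio tests permuted oocytes (scipy 1.17.1), with 100000 resamples in batch B. Oocytes were not paired by number.

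Genes and sequences came from GENCODE M21 on GRCm38, where 54723 of 54752 identifiers were found. Parents were aligned with blastn 2.17.0. No sequence is printed for members on chromosome 18. Printed windows kept to the parent's coding sequence, because no UTR stretch is printed. Named were the 6 members of highest mean CPM per table, up to 6 called per direction and fit by adjusted p, 2 per table at each side of the detection threshold, the 3 with the most and fewest HTSeq counts per RSEM count among members with a mean of at least 10 RSEM counts, and their parents. Alternatives were no filter, RLE or spike-in scaling, no fold threshold, a replicate block, all 37 oocytes with batch as a covariate, family sums, other pseudocounts and detection thresholds, and oocytes left out.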

Additional observations from a re-analysis of the deposited data

Results flagged for a closer look

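In groups of 4 to 10 oocytes, an oocyte is listed here when its gap to the nearest other oocyte, as a share of its group's range, passed Dixon's 95% critical value. Of 105 groups examined 11 gave such an oocyte, and chance alone flags about 1 in 20 groups. No cause was tested.

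MII oocyte 1 had the most genes with a count, 29518 in RSEM against 19270 to 22240 (gap 0.710 of the range) and 34239 in HTSeq against 19600 to 23520 (0.732). GV oocyte 5 of batch A had 152 members detected in HTSeq against 130 to 138 (0.636). MII oocyte 2 had 4.66 CPM of Rpl31-ps8 in RSEM against 0 to 1.36 (0.709). GV oocyte 1 of batch A had 4.68 CPM of Rpl17-ps3 in HTSeq, where the group's lowest was 2.03 and its median 2.40 (0.747).

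GV oocyte 4 of batch B was listed 5 times in HTSeq. Its members summed to 208 CPM against 64.9 to 138 (0.486), with 7.71 CPM of Rpl14-ps1 against 3.28 to 5.15 (0.577) and 17.9 CPM of Rpl17-ps3 against 1.45 to 6.59 (0.687). Rpl28-ps1 had 2.68 CPM there against 0.395 to 1.42 (0.552) and Rpl31-ps8 4.92 CPM against 0.238 to 2.01 (0.621). GV oocyte 7 of batch B had 2.79 CPM of Rpl27-ps3 in HTSeq against 0.198 to 1.56 (0.473).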

How the results depend on the processing

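Of 200 alternatives tried on counts of calls, shares of pairs and summary ratios, 170 kept the value within its limit. For log2 fold changes of named members 597 alternatives kept direction and call, 25 lost the call, 3 gained it and 16 reversed, and for ratios to the parent these numbers were 150, 8, 7 and 19. Where a value below moved, the cause was not tested. The members below the count filter, 163 of 176 in RSEM and 196 of 222 in HTSeq in batch A, limit what can be said of most pseudogenes, and how each tool divided reads shared by a member and its parent was not tested.

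In batch A, RSEM members called lower (5) numbered 11 with no filter, beside 964 of 36863 genes, and 8 with spike-in scaling. They numbered 89 of 176 when each member took its family's call, where those called higher (3) numbered 0. These 89 repeat the lower calls of 32 of 50 families, beside 813 of 12916 genes, and are not calls of single pseudogenes. HTSeq members called lower (10) numbered 105 by family, 19 with spike-in scaling and 7 with the replicate block. The 105 likewise repeat the lower calls of 31 of 56 families, beside 668 of 13383 genes. Spike-in scaling called 3788 of 12929 genes lower in RSEM and 3645 of 13409 in HTSeq. The replicate block called 486 of 13409 genes lower in HTSeq. Those called higher (1) numbered 0 with no filter, by family, with spike-in scaling, in the fit of all 37 oocytes and with the replicate block. With 1 oocyte left out at a time, RSEM gave 5 to 7 lower and 3 higher, and HTSeq 8 to 17 lower and 0 to 1 higher. HTSeq gave 17 lower without GV oocyte 6 (34 tested, beside 831 of 13651 genes) or MII oocyte 2 (36 tested, beside 765 of 13654). It gave 0 higher without GV oocyte 2, 3 or 6 or MII oocyte 3. With no filter, batch B gave 7 lower and 6 higher HTSeq members, beside 2060 and 930 of 35354 genes. Pairs of batch B with p under 0.05 numbered 0 in RSEM, in place of 1, with 0.1 CPM added and without GV oocyte 4, MI oocyte 15 or MI oocytes 4, 8 and 9, and 2 in HTSeq, in place of 1, with 2 CPM added and without MI oocytes 4, 8 and 9. A count in 12 oocytes left 80 RSEM and 141 HTSeq members and 10 counts in 3 oocytes left 35 and 75. At a mean of at least 1 RSEM count the members' median of HTSeq per RSEM counts was 1.06, not 0.425.

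Reversed log2 ratios in batch A with 2 CPM added were 0.24 for Rpl27-ps3 in RSEM and, in HTSeq, 0.28 for Rpl14-ps1, 0.85 for Rpl18-ps1 and 0.88 for Rps18-ps3. The GV medians of Rpl18-ps1 and Rps18-ps3, 1.12 and 1.44 CPM, lie below the 2 CPM added, so these 2 signs are not read. With nothing added, their mean shares of the pair's counts were 1.58% and 3.33% at GV and 0.501% and 0.674% at MII. With 0.1 CPM added the reversed ratios were -0.054 for Rpl10-ps3, -0.695 for Rpl38-ps2 and -0.033 for Rps2-ps10 in HTSeq. With nothing added, Rpl38-ps2 held a median of 6.42% (4.74% to 8.31%) of its pair's counts at GV and 2.98% (1.19% to 5.97%) at MII. The sign of its ratio with 0.5 CPM added is therefore not read either. Without MII oocyte 1 they were -0.001 for Rpl19-ps3 in RSEM and -0.008 for Rps2-ps10 in HTSeq. In batch B they were -0.11 for Rpl27-ps3 and 0.14 for Rps2-ps10 in RSEM with 2 CPM added, -0.053 for Rps13-ps2 in HTSeq with 0.1 CPM, and -0.29 for Rpl27-ps3 in RSEM and 0.053 for Rpl17-ps3 in HTSeq without GV oocyte 4. Without MI oocyte 15 they were 0.025 for Rps2-ps10 in RSEM and 0.025 for Rpl19-ps3 and -0.11 for Rps13-ps2 in HTSeq, and without MI oocytes 4, 8 and 9 0.001 for Rpl17-ps3 and 0.12 for Rps18-ps3 in HTSeq.

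Reversed log2 fold changes in batch A were -0.65 for Rps16-ps2 and -0.04 for Rpl31-ps8 in HTSeq with spike-in scaling, and 0.11 and 0.12 for Rpl19-ps3 in HTSeq without GV oocyte 3 or MII oocyte 4, within a range of -0.34 to 0.12 over the oocytes left out. In batch B without MI oocytes 4, 8 and 9 they were -0.10 for Rps13-ps1 and 0.10 for Rpl17-ps3 in RSEM, and 0.03 for Rps18-ps3, 0.16 for Rpl10-ps3, 0.02 for Rpl31-ps8 and 0.07 for Rpl19-ps3 in HTSeq. Without GV oocyte 4, an alternative chosen after seeing the data, they were 0.12 for Rpl17-ps3 in RSEM and 0.18 for Rpl10-ps3, 0.35 for Rpl31-ps8 and 0.30 for Rpl17-ps3 in HTSeq. Rpl19-ps3 had 0.01 in HTSeq without MI oocyte 15, and Rpl14-ps1 had -0.28 in HTSeq with the replicate block.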
